A study of Mus musculus with 3 samples.

Results

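The mitochondrial genome encodes RNAs that are made and kept inside the organelle, away from the nuclear pre-mRNAs on which RBFOX2 is known to act. This account describes every RBFOX2 crosslink cluster that lay on the mouse mitochondrial chromosome, on either strand. Each cluster was assigned by its midpoint to one of the 37 mitochondrial genes of the GENCODE M21 annotation (genome build GRCm38), or to none. Such clusters numbered 180 of the 87021 in the study, which is 0.207% (Wilson 95% interval 0.179 to 0.239). They held 12020 of 2850863 counts, or 0.422% (0.414 to 0.429).

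The data came from eiCLIP, an enhanced form of individual-nucleotide crosslinking and immunoprecipitation, in which ultraviolet light joins a protein to the RNA it touches and the end of each cDNA marks the joined base. Primary hepatocytes of C57BL6/J mice on a control diet were plated, irradiated the next day and precipitated with an antibody to RBFOX2. All 3 libraries belonged to this single group, and the study's methods describe each as an independent culture of cells pooled from more than 1 mouse. The labels give 3 livers for each sample, which differs from the number of mice in the methods. The authors pooled them into 1 list of clusters with 1 whole-number count each, so no value below has a spread over replicates and the depth of each library is unknown. All intervals cover counting error only. No control precipitation or input RNA was analysed here, so an abundant RNA and a strongly crosslinked RNA cannot be told apart. The hepatocyte label was matched by its markers, since all 8 hepatocyte genes examined held clusters (213 in all, 13995 counts). Of 10 markers of endothelial, Kupffer, stellate, cholangiocyte and lymphocyte cells, 3 held 1 cluster each, with 12 to 15 counts.

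RBFOX2 is a splicing factor with 1 RNA-recognition motif that prefers the RNA sequence UGCAUG, or its core GCAUG, and that mostly marks introns beside alternative exons. Mitochondrial RNAs have no introns and no spliceosome. Both strands of the circular genome are transcribed as long precursors, and tRNAs that sit between the genes are cut out to release the mRNAs and rRNAs. The mRNAs encode core subunits of the respiratory chain (NADH dehydrogenase, or complex I; cytochrome bc1, or complex III; cytochrome c oxidase, or complex IV) and of the ATP synthase (complex V). In the annotation, 28 genes lie on the plus strand and 9 on the minus strand, among them mt-Nd6, the single protein-coding gene of that strand.

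The 5 clusters with the highest counts are shown first, since they carried 1944 of the counts (16.2%). Each line gives 10 nt before the cluster's 5′ end in lower case and its first 20 nt in capitals, in the direction of the RNA and written with T for U. The sequences came from the GENCODE M21 transcripts (GRCm38).
mt-Nd2, plus strand, chrM:4022-4051: ctactagcaaTTATCCCCATACTAATCAAC
mt-Co1, plus strand, chrM:5582-5611: aataatcggaGCCCCAGATATAGCATTCCC
opposite mt-Nd6, plus strand, chrM:13635-13664: tatatattgcCGCTACCCCAATCCCTCCTT
mt-Nd6, minus strand, chrM:13705-13734: ggagtaattaATCTTGATGGTTTGGGAGAT
mt-Nd4, plus strand, chrM:11372-11401: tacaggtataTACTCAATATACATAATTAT

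None of these stretches holds GCATG. The mt-Nd2 cluster spanned positions 4032 to 4057 with 507 counts and ranked 254 of all clusters in the study. The mt-Co1 cluster (5592 to 5620) held 377 counts. The 3 others held 363, 357 and 340 counts, and all 5 were among the 364 highest clusters of the list. The plus-strand cluster opposite mt-Nd6 and the cluster of mt-Nd6 came from the same place on opposite strands, where their spans (13645 to 13671 and 13668 to 13724) overlapped by 4 nt.

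Of the 180 clusters, 132 lay on the plus strand (73.3%, 66.4 to 79.3) and 48 on the minus strand. Outside the mitochondrial chromosome the 2 strands were nearly even in number of clusters, with 50.8% on the plus strand (50.5 to 51.2). By count, the plus strand there held 56.4%. Mitochondrial plus-strand clusters held 9674 counts, or 80.5% of the mitochondrial total. Their counts ran from 10 to 507 with a median of 40, against 10 to 357 with a median of 28.5 on the minus strand. The plus strand thus had the higher median and the 3 highest clusters, and the ranges of the strands overlapped below 357 counts.

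**Figure D1:**
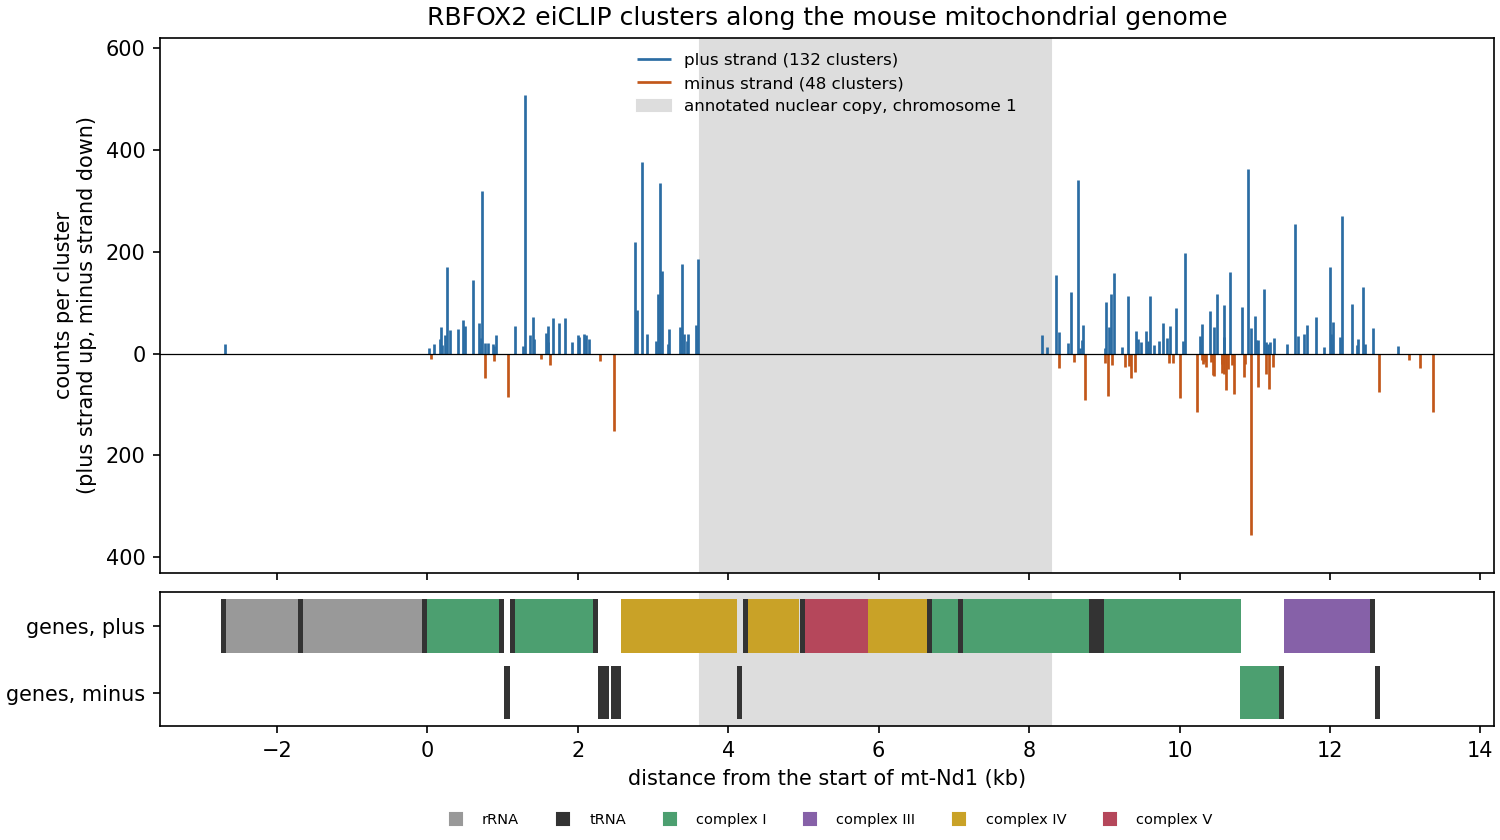
Counts of each mitochondrial cluster by distance from the start of mt-Nd1 in kb, with plus-strand clusters drawn upward and minus-strand clusters downward, above a map of the genes coloured by the product they encode. The shaded stretch aligns with an annotated nuclear copy on chromosome 1 and held 2 clusters, of 37 and 12 counts, near its right edge, and 33 of the 48 minus-strand clusters lay from mt-Nd5 to mt-Nd6.

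By type of RNA, 125 clusters (69.4%, 62.4 to 75.7) lay in a protein-coding gene on its own strand and held 9365 counts (77.9%). Another 45 clusters (25%, 19.2 to 31.8) lay only opposite a gene and held 2090 counts (17.4%). The tRNA genes held 6 clusters with 395 counts, and 4 clusters with 170 counts lay in no gene on either strand. Per kb of gene, coding genes held 821 counts and tRNA genes 263. Both lengths include genes inside a long stretch without clusters, described below. Its zeros do not tell whether those RNAs were crosslinked, and they lower both values. The 2 rRNA genes, mt-Rnr1 and mt-Rnr2, held no cluster over 2537 nt. The name of the deposited list says that ribosomal RNA was removed, and whether that step covered mitochondrial rRNA is not given in the sources used here. Its part in these zeros was not tested.

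In all, 13 of the 37 genes held a cluster on their own strand. Complex I subunits gave 5 of 7 genes, with 87 clusters and 5901 counts. The complex III gene mt-Cytb gave 18 clusters with 1369 counts. Of the 3 complex IV genes, mt-Co1, the catalytic subunit, gave 20 clusters with 2095 counts, and mt-Co2 and mt-Co3 gave none. Both ATP synthase genes, mt-Atp6 and mt-Atp8, held no cluster. The 6 coding genes without a cluster were mt-Co2, mt-Atp8, mt-Atp6, mt-Co3, mt-Nd3 and mt-Nd4l, which are neighbours on the genome.

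Within complex I, mt-Nd5 had the most clusters of any mitochondrial gene. It held 31 with 2004 counts, and single clusters ran from 10 to 198 with a median of 53. No cluster dominated mt-Nd5, whose highest held 9.88% of its counts. The mt-Nd1 gene, for a membrane subunit near the quinone site, held 21 clusters with 1225 counts (10 to 319, median 36). The mt-Nd2 gene held 18 clusters with 1223 counts (14 to 507, median 37.5), of which the highest took 41.5%. Both genes therefore had almost equal sums, reached with a more uneven distribution in mt-Nd2. The mt-Nd4 gene held 10 clusters with 822 counts (11 to 340, median 40), and its highest took 41.4%. The mt-Nd6 gene held 7 clusters with 627 counts (21 to 357, median 45), and 1 cluster took 56.9% of them. The share taken by the highest cluster was thus largest in mt-Nd6, the coding gene with the fewest clusters of the 7. In mt-Co1 the highest cluster held 18% (18 to 377, median 50.5), and in mt-Cytb, which encodes the cytochrome b subunit, 19.7% (12 to 270, median 39).

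Scaled to gene length, the 7 coding genes with clusters were close to each other except for mt-Nd4. With exact Poisson intervals, mt-Co1 held 1356 counts per kb (1299 to 1415) and mt-Nd1 1280 (1209 to 1354). Then came mt-Nd6 at 1208 (1115 to 1306), mt-Cytb at 1197 (1134 to 1262) and mt-Nd2 at 1178 (1113 to 1246). The intervals of mt-Nd1, mt-Nd6, mt-Cytb and mt-Nd2 all overlap, so counting error alone does not order these 4 genes. The mt-Nd5 gene held 1099 counts per kb (1051 to 1148) and mt-Nd4 597 (556 to 639). Both mt-Co1 and mt-Nd4 run into a long stretch without clusters, described next. Counted over the length outside that stretch, a choice made after the values were seen, mt-Co1 held 2040 counts per kb (1954 to 2129) and mt-Nd4 1307 (1219 to 1399). On that scale the highest gene, mt-Co1, was 1.86 times the lowest, mt-Nd5. The 5 coding genes wholly outside it were split by length into 3 equal parts. Of their 95 clusters, 34 lay in the 5′ part, 28 in the middle and 33 in the 3′ part, so no end of the genes held most of them.

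**Figure D2:**
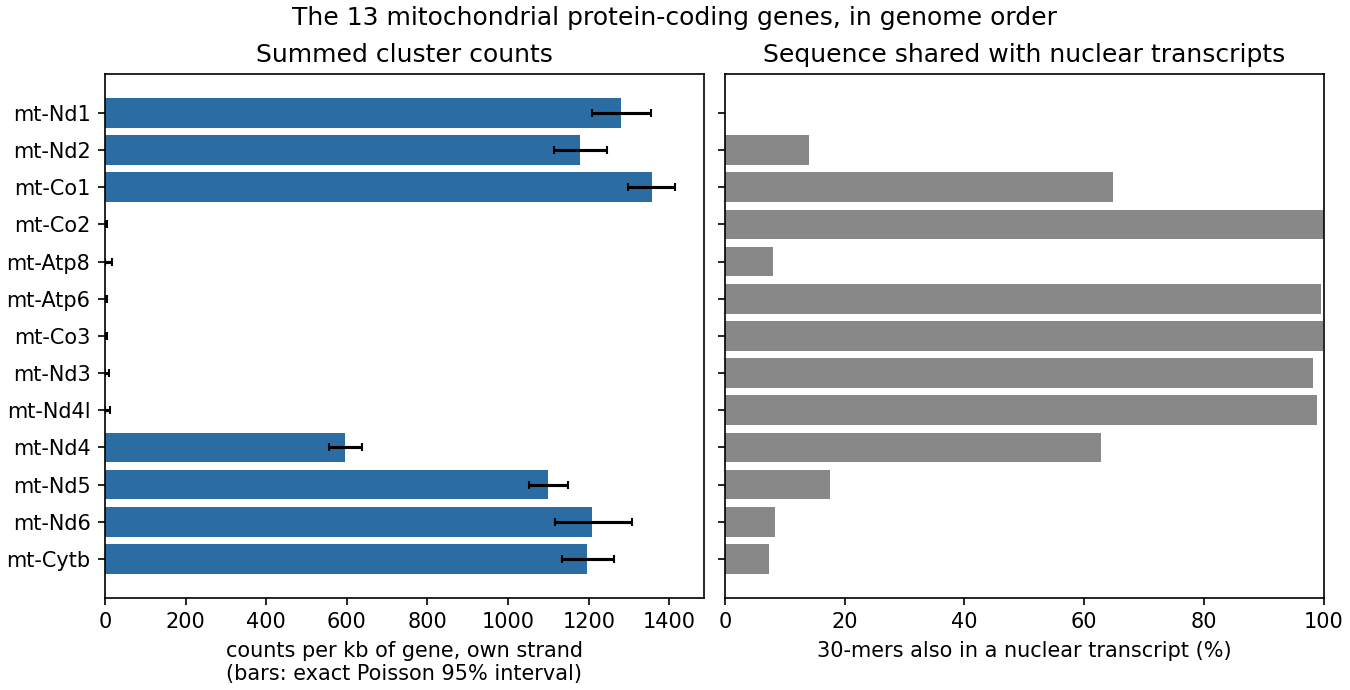
Left, summed counts per kb on the gene's own strand for the 13 mitochondrial protein-coding genes in genome order, with exact Poisson 95% intervals; right, the percentage of 30-nt runs of each gene found exactly in a nuclear transcript. The 6 genes without a cluster are adjacent, and 5 of them share at least 98.1% of their 30-nt runs with nuclear transcripts.

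The longest stretch of the mitochondrial chromosome without a cluster on either strand spanned positions 6355 to 10915, which is 4561 nt. It starts within mt-Co1, ends within mt-Nd4 and contains 11 whole genes, namely the 6 coding genes without clusters and 5 tRNA genes. Its edges are set by the nearest cluster on each side. The last one before it, at 6347 to 6354 in mt-Co1, held 185 counts, and the next one after it, at 10916 in mt-Nd4, held 37.

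This stretch coincides with a nuclear copy of mitochondrial DNA. Such copies, called NUMTs, are fragments of mitochondrial DNA that were inserted into chromosomes. On chromosome 1, 7 annotated pseudogenes (Gm29216, Gm28661, Gm10925, Gm28437, Gm28438, Gm10222 and Gm28439) lie in a row from 24611535 to 24616197 and align with mitochondrial positions 6381 to 11042. Of 4149 bases compared, 7 differed. The copies of mt-Co2, mt-Atp6, mt-Co3 and mt-Nd4l, and that of the first part of mt-Nd4, matched without a difference over their annotated length, the copy of mt-Nd3 had 1 difference, and that of mt-Co1 had 6. The start of the copy of mt-Co1 is shown because all 6 of its differences lie there, and capitals mark the bases that differ.
mt-Co1, plus strand, chrM:6381-6410: ggTCtAAcCggaAttgttttatccaactca
Gm29216, minus strand, chr1:24616168-24616197: ggATtGGcAggaTttgttttatccaactca

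After these 6 differences, the last at position 6393, the copy of mt-Co1 was identical for 479 nt to the end of the gene. The alignment ran without gaps over the whole annotated pseudogene. Whether the bases up to 6393 belong to the copy or to nuclear sequence beside it was not tested. The 5′ end of the last cluster before the stretch lay 46 nt before that last difference. Inside the stretch, 87.6% of 30-nt runs also occurred in a nuclear transcript, and no cluster was listed. Outside it, 12.2% of the runs did, and 26 of 173 clusters (15%, 10.5 to 21.1) began at such a run, among them the 377-count cluster of mt-Co1. The study kept reads that aligned to 1 place in the genome, and a read that fits both copies equally has no such place. The part of this step in the missing clusters was not tested. Whether the RNAs of the stretch were crosslinked cannot be told from these zeros. Not all of the stretch is shared by this measure. In mt-Atp8, 8% of 30-nt runs matched a nuclear transcript, and in the 5 tRNA genes of the stretch none did. Most of mt-Atp8 and these tRNAs align with parts of the block between the annotated pseudogenes, where no bases were compared.

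The aligned mitochondrial positions of the block are slightly wider than the empty stretch, and 2 clusters had their 5′ end inside the block, with 37 and 12 counts, both within mt-Nd4 in the part where its copy had no difference. The first of them began 127 nt before the block's annotated end. On the nuclear side, the whole block held 1 cluster, of 28 counts and 1 nt wide, in Gm29216 at position 24615716, which aligns with mitochondrial position 6862.

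Across the genome, 22 annotated pseudogenes shared a 30-nt run with a mitochondrial gene, and 3 of them held clusters on their own strand, 5 clusters with 84 counts in all. Gm13340 on chromosome 2, which matches mt-Co1 at 97.6% of 1545 nt, held 3 clusters of 16, 15 and 14 counts. Gm11410 on chromosome 4, which matches mt-Cytb at 92.8%, held 1 cluster of 11 counts, and Gm29216 held the 1 of 28. All 5 were low beside the mitochondrial median of 39. The highest cluster over a shared run outside the mitochondrial chromosome held 128 counts and lay in Gm20594, a small gene on chromosome 6 (79817916 to 79818364) that shares sequence with mt-Rnr2. The 2 clusters of Cep295, with 16 and 33 counts, lay at least 22328 nt from the stretch that gene shares. Copies were named from 30-nt runs, a choice made after the values were seen, because runs of 18 nt also matched long unrelated genes (161 genes, against 24).

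A second long stretch without clusters, 2717 nt from position 56 to 2772, covers both rRNA genes with mt-Tv and mt-Tl1. There 1.65% of 30-nt runs occurred in a nuclear transcript, so it differs from the first stretch in shared sequence. Upstream of it the tRNA mt-Tf held 1 cluster of 18 counts, which was the sole cluster before mt-Nd1 on either strand.

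Of the 22 tRNA genes, 6 held a cluster, 1 each. The 8 tRNA genes of the minus strand gave 4 of them, mt-Tc (cysteine) with 151 counts, mt-Tq (glutamine) with 86, mt-Tp (proline) with 75 and mt-Ta (alanine) with 14. The 14 on the plus strand gave 2, mt-Tt (threonine) with 51 and mt-Tf (phenylalanine) with 18. Of those without a cluster, mt-Td, mt-Tk, mt-Tg and mt-Tr on the plus strand and mt-Ts1 on the minus strand lie in the longest empty stretch. Their zeros do not tell whether they were crosslinked, so the strands are not compared on equal terms. The 3 tRNAs with the highest counts were all on the minus strand. Their first 30 nt are shown because the clusters began at or near the 5′ end of the gene, with the cluster's bases in capitals.
mt-Tq, minus strand, chrM:3813-3842: TAGGATAAGGTGTTTAGGTAGCACGGAGAA
mt-Tc, minus strand, chrM:5228-5257: ggtcttaAGGTGATATTCATGTCGAATTGC
mt-Tp, minus strand, chrM:15393-15422: CAAGAAGTAGTTTAATTAGAATACCAGCTT

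The clusters of mt-Tq (3804 to 3843, 40 nt wide) and mt-Tp (15385 to 15423, 39 nt wide) began 1 nt before the annotated 5′ end of the tRNA, which is where the precursor is cut. The cluster of mt-Tc (5226 to 5250) began at nt 8 of the gene. By their 5′ ends alone, those of mt-Tq and mt-Tp would not count as tRNA clusters.

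The minus strand, which apart from mt-Nd6 and 8 tRNAs carries RNA without annotated genes, had most of its clusters in 1 region. From mt-Nd5 to mt-Nd6 (11742 to 14070) lay 33 of its 48 clusters (68.8%, 54.7 to 80.1), with 1624 of its 2346 counts. That is 14.2 clusters per kb, near the 18 per kb of the plus strand in the same region. From mt-Nd1 to the empty stretch the plus strand was similar at 16.4 per kb, while the minus strand held 2.22 per kb. Between mt-Nd1 and mt-Tp, outside the empty stretch, the regions of the plus strand thus held 12.1 to 18 clusters per kb, and those of the minus strand 0.740 to 14.2.

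Opposite mt-Nd5, 26 minus-strand clusters held 997 counts (median 26, 12 to 114), or 547 counts per kb (513 to 582) against 1099 (1051 to 1148) for mt-Nd5 itself. At mt-Nd6 the order was the other way. There the plus strand, opposite the gene, held 11 clusters with 852 counts, or 1642 per kb (1533 to 1756), and the gene itself held 1208 (1115 to 1306). These 11 were the only antisense clusters of the plus strand. The remaining antisense clusters lay opposite mt-Nd1 (3 with 71 counts), mt-Nd4 (3 with 137) and mt-Nd2 (2 with 33). A plus-strand cluster lay within 20 nt of 26 of the 48 minus-strand clusters (54.2%), and a minus-strand cluster within 20 nt of 34 of the 132 plus-strand ones (25.8%). The share that the density of clusters alone would give was not computed. Past mt-Tp, in the control region that holds no gene, the minus strand held 3 clusters with 155 counts and the plus strand 1 with 15.

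Mitochondrial clusters were higher and narrower than others in the list. Their median count was 39 (quartiles 22 and 72.25), against 17 (13 and 25) for all other clusters. A count of at least 17, the median of the whole list, was reached by 162 of them (90.0%, 84.7 to 93.6), and 92 (51.1%, 43.9 to 58.3) were in the top 10% of the list, where 10.1% of other clusters were. Their median width was 3 nt (1 to 82), against 18 nt for all others and 31 nt for clusters in nuclear coding sequence. A width of 1 nt was found for 56 (31.1%, 24.8 to 38.2), against 7.69% of all other clusters and 3.89% in nuclear coding sequence. Clusters outside annotated nuclear genes came closest in width, with a median of 5 nt, but their median count was 15. As the clusters were defined by density of crosslinks, count and width are not independent of how they were called.

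**Figure D3:**
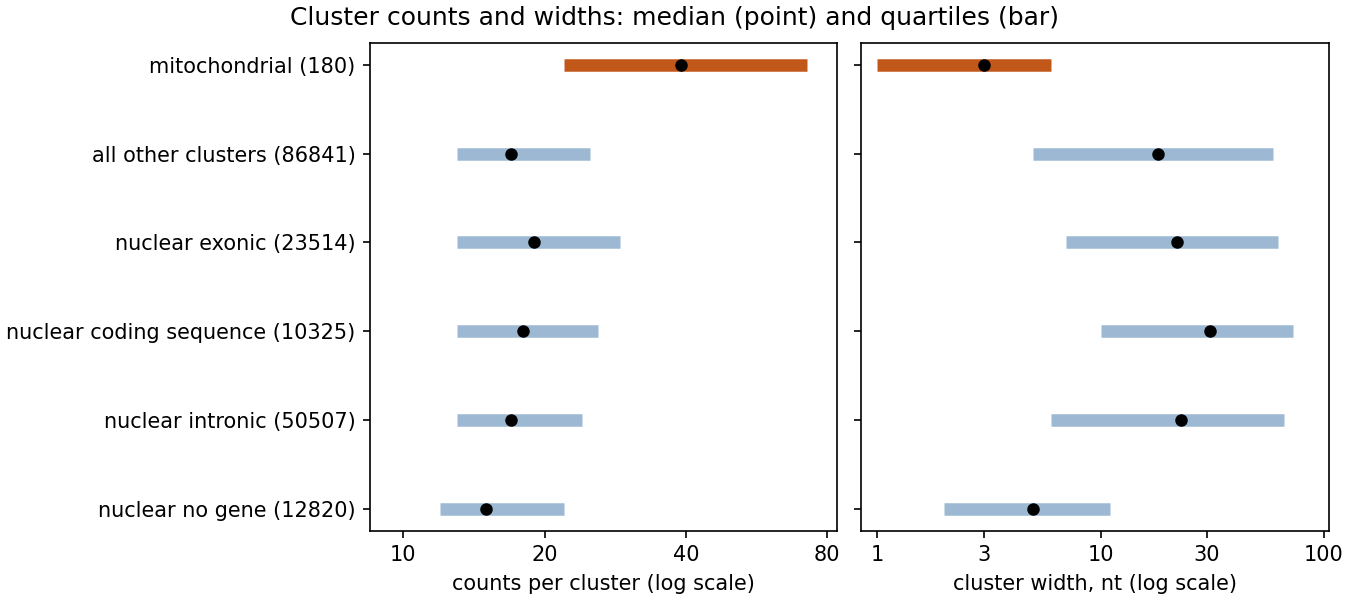
Median (point) and quartiles (bar) of counts per cluster, left, and cluster width in nt, right, both on log scales, for mitochondrial clusters and for classes of nuclear clusters, with the number of clusters in parentheses. Mitochondrial clusters had the highest median count, 39, and the smallest median width, 3 nt.

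The RBFOX motif was sought as GCATG, on the strand of the cluster, within 50 nt on each side. It was present in 4 of 169 mitochondrial windows with known sequence (2.37%, 0.924 to 5.93). Of all mitochondrial windows of the same lengths and strands, 3.52% held it, a share inside that interval. Windows of neighbouring clusters overlap, and the interval treats them as separate, so it is too narrow. Windows of clusters in nuclear coding sequence held it in 13.1% (12.1 to 14.3, of 3744), nuclear exonic windows in 19.2% (18.6 to 19.8, of 15719) and nuclear intronic windows in 25.7% (24.2 to 27.2, of 3307). These nuclear windows are the ones that fit inside annotated transcripts. Their lengths were not matched to the mitochondrial ones, and median cluster width was 3 nt for mitochondrial and 31 nt for nuclear coding clusters. Limited to counts between the mitochondrial quartiles, nuclear coding windows held it in 15.4% (13.4 to 17.6). The longer TGCATG was found in 0 of 169 mitochondrial windows (upper limit 2.22%) and in 0.602% of all mitochondrial windows of the same lengths. In nuclear coding windows it was in 3.66% (3.10 to 4.31), and in nuclear exonic ones in 9.64%. The reversed complement CATGC, taken as a comparison, was in 3.55% of mitochondrial windows (1.64 to 7.53), 11.3% of nuclear coding, 12.7% of nuclear exonic and 16.2% of nuclear intronic ones. The mitochondrial windows thus had lower shares than each nuclear class for GCATG and for CATGC, and the cause was not tested. Of all mitochondrial windows of the same lengths and strands, 4.80% held CATGC. A background share was not computed for nuclear windows.

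**Figure D4:**
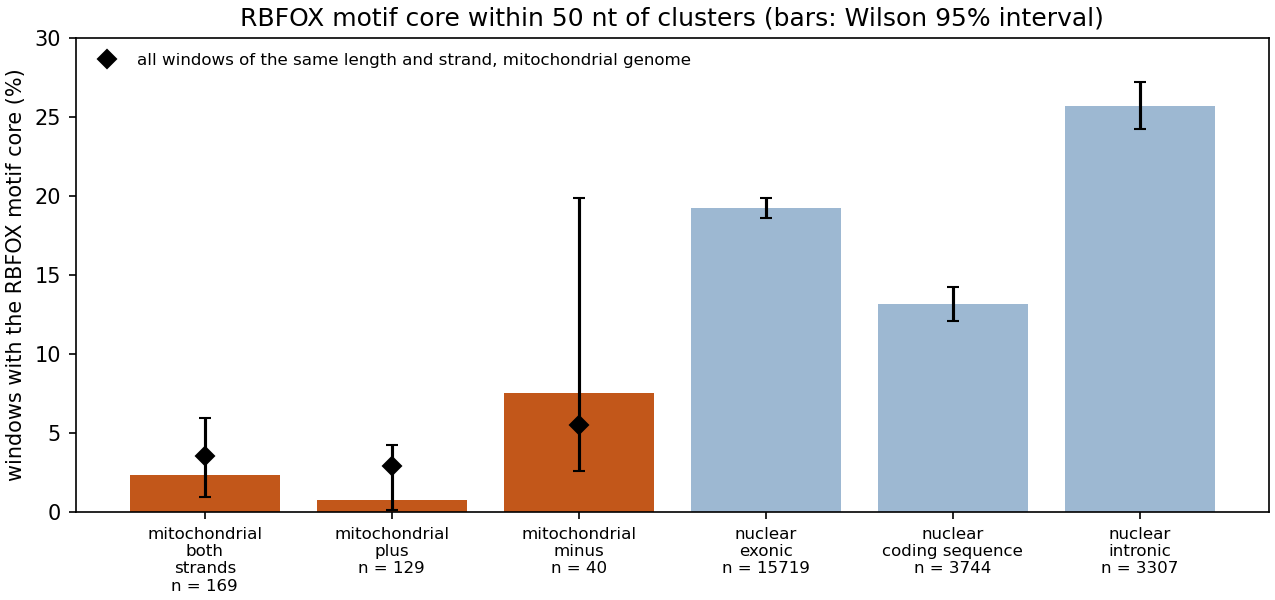
Percentage of cluster windows (cluster with 50 nt on each side) that hold the RBFOX motif core, with Wilson 95% intervals; diamonds give the share of all mitochondrial windows of the same length and strand. The mitochondrial share was 2.37% for both strands together and lay below the 13.1% to 25.7% of the nuclear classes.

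The motif is rare on this chromosome, with 4 sites on the plus strand and 8 on the minus strand where sequence was known. No site was touched by a cluster, and 1 on each strand lay within 50 nt of one. The 2 sites are shown with the motif in capitals because all 4 windows with the motif rest on them.
opposite mt-Nd5, minus strand, chrM:12110-12139: gaggtgaggataaGCATGgtaatcaggaat
mt-Nd2, plus strand, chrM:4397-4426: attttcatagggGCATGaggaggacttaac

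The site opposite mt-Nd5 (12122 to 12126) lay 7 nt from a cluster of 48 counts, and 2 further windows, of clusters with 24 and 37 counts, reached the same site. The site in mt-Nd2 (4409 to 4413) lay 10 nt from a cluster of 69 counts. Of the remaining 10 sites, 4 lay in the long stretch without clusters and 2 in or opposite an rRNA gene. By strand, the motif was in 1 of 129 plus windows (0.775%, 0.137 to 4.26) and in 3 of 40 minus windows (7.50%, 2.58 to 19.9), the latter from 1 site.

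Nuclear genes whose products work in mitochondria were examined beside the organelle's own. The share of all nuclear genes that held a cluster was not computed, so the gene numbers below cannot be set against it. Of 96 nuclear gene entries for subunits or assembly of the respiratory chain and ATP synthase, 51 held clusters, 154 in all with 3345 counts. The highest sums were in Atp5o (491 counts) and Ndufaf6 (461), followed by Atp5c1 (141). The annotation has 2 entries named Atp5o, and all 17 clusters were intronic to the longer one (chromosome 16, 91684398 to 91926982), while the shorter (91925214 to 91931687) held none, so their assignment to Atp5o is uncertain. These clusters had a median of 18 counts, 93 of them were intronic, and GCATG was in 9 of 41 windows (22.0%, 12 to 36.7). Nuclear and mitochondrial genes of the same complexes thus stood apart in median count and in motif share, with the nuclear set near other nuclear clusters. The motif share covers only the 41 windows that fit inside annotated transcripts, while most of the 154 clusters were intronic. No background share was computed for nuclear windows, and the cause of the gap in motif share was not tested. Of 78 mitochondrial ribosomal protein genes, 44 held 111 clusters with 2015 counts and a median of 16, led by Mrpl37 (276), Mrps28 (178) and Mrpl1 (120). Of 30 genes for mitochondrial DNA replication, transcription, RNA processing and aminoacylation, 18 held 71 clusters with 11083 counts and a median of 17. In that list Lars2, the mitochondrial leucyl-tRNA synthetase, held 9887 of the 11083 counts, so the sum of the list mostly reflects this gene. The 7 clusters of Lars2 were all exonic, and 8934 of its counts lay in a single cluster. Whether the reads of that cluster came from Lars2 RNA was not tested, and the count alone does not show strong binding. Lrpprc, which stabilises mitochondrial mRNAs, held 275 counts and Tbrg4 held 201.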

How the data were processed

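RBFOX2 eiCLIP was done on 3 libraries of primary mouse hepatocytes. Per the study's methods and the submitters' processing notes, the authors trimmed reads with cutadapt, kept those of at least 18 nt, aligned them end to end to GRCm38 with STAR 2.4.2a (CASAVA 1.8.4 is also named), kept unique alignments and removed duplicates by barcode. Crosslink positions of the 3 libraries were pooled and clustered with Paraclu. The deposited values are a raw whole-number count per cluster, of at least 10, not normalized.

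From this list, clusters were assigned by midpoint with Python 3.11.15, numpy 2.4.6, pandas 2.3.3 and scipy 1.17.1, and the code was tested on simulated clusters. Mitochondrial sequence was rebuilt from GENCODE M21 transcripts (15365 positions), so 11 clusters had no full window and the control region was not searched. Runs of 18 or 30 nt were matched exactly to nuclear transcripts. Shares have Wilson and sums exact Poisson 95% intervals. There is 1 group, so no test between groups was run. Every gene with a cluster is named, as are the 5 highest clusters, up to 5 copies, and the 3 highest genes of each nuclear list, of which 1 tied gene is not reported here. The members and lists were chosen with earlier results of these data known.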

Additional observations from a re-analysis of the deposited data

How the results depend on the processing

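Of 39 alternative values for 13 results, 27 stayed within counting error (or, for numbers of clusters and genes, within 1.5 times) and 12 moved. Some of the 27 could not have moved. Examples are the rRNA share of 0% when weighted by count, and the share of counts after nearby clusters were merged. Clusters at or above the list median numbered 162 and held 0.509% of the list's counts, while those in the top 10% numbered 92 and held 0.684%. Weighted by count, the plus strand took 80.5%, coding genes 77.9% and antisense positions 17.4%. With either strand accepted, coding genes took 94.4%. Mitochondrial clusters reached the list median more often than others by 38.3 percentage points, and by 31.3 against nuclear exonic clusters. TGCATG was in 0% of windows, and GCATG in 0% of clusters without flanks. With 30-nt in place of 18-nt runs, 15% of clusters in place of 26% began at a shared run, and 24 nuclear genes in place of 161 shared one. Beyond what each alternative changes by construction, the cause was not tested.

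No paired analysis was possible because the authors pooled the 3 libraries into 1 count per cluster, which also meant that no library could be left out. Clusters under 10 counts are not in the list, so a gene without one may still have been crosslinked below that depth. The motif background outside the empty stretch and the rRNA genes, 2.69% of windows, and gene lengths outside that stretch were chosen after seeing the data.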
